A study of Rattus norvegicus with 547 samples.

Results

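2-Nitrofluorene (2-NF) is a nitrated polycyclic aromatic compound found in diesel exhaust, and the submitters class it as genotoxic (GT). Its response was measured on 18 of the 547 arrays of a series on liver toxicants. These are 9 arrays of treated hepatocytes and 9 of solvent controls, chosen by their titles and labels and not by any measured value. Treatment lasted 24 h at 43.13 µM (labelled high), 14.38 µM (middle) or 4.76 µM (low), with 3 treated and 3 control arrays at each concentration. The cells were primary hepatocytes of male Wistar rats kept as sandwich cultures, that is, between layers of matrix. Per the design text of the series, treated and solvent wells shared a culture dish, and each replicate used cells of another rat, isolated on another day. A treated array and the control with the same replicate number are therefore called a dish below. The labels used here name neither the solvent nor the age of the rats, and all groups share the culture conditions.

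In the liver, nitroarenes such as 2-nitrofluorene are reduced to hydroxylamines and amines, which can be activated further and bind covalently to DNA. The reduced product, 2-aminofluorene, is also a metabolite of 2-acetylaminofluorene (2AAF), a classical rat liver carcinogen with the same fluorene ring system. Planar polycyclic molecules can in addition bind the aryl hydrocarbon receptor, which switches on enzymes of foreign compound metabolism, and DNA damage is known to engage the p53 pathway. The comparisons ask which transcripts differ between treated and solvent cells at each concentration and how the response depends on concentration.

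Each value is a log2 expression level of a probe set, a group of short probes on the array that reads 1 transcript or a few related ones. A difference of 1 on this scale is a 2-fold change. Of 31099 probe sets, 57 were array controls, and the remaining 31042 were tested. No table used here gives the gene of a probe set, so they are named by their IDs, with at most 2 that rose and 2 that fell for each comparison. Hepatocyte markers and other cell type markers were not analysed here for the same reason. IDs ending in _s_at mark sets whose probes can match several transcripts, and those ending in _a_at sets that read alternative transcripts of a gene.

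Array medians of the 18 arrays ran from 5.43 to 5.53, and the mean signal of the spiked control RNAs from 9.11 to 10.4. The spike signal was 9.85 to 10.4 on the arrays of the high concentration, treated and control alike, and 9.11 to 9.67 on the others. The third low dish stood apart from its group. Its differences of treated minus control correlated at -0.14 and -0.17 with those of the other low dishes over all probe sets, whereas these correlated with each other at 0.34. Its control array had a 95% quantile of 9.51, against 9.20 and 9.22 in the other low controls. At the high and middle concentrations the dishes correlated with each other at 0.23 to 0.50 and at 0.25 to 0.37. These correlations are descriptions over probe sets, which are not independent, and precision is limited throughout by having 3 dishes per concentration.

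At 43.13 µM, 2-nitrofluorene raised and lowered probe sets in nearly equal number in the values as deposited. Of the probe sets tested, 1342 (4.32%) differed from solvent by limma's moderated test on dish differences at a Benjamini-Hochberg adjusted p under 0.05. Probe sets past this threshold are called changed below. They comprised 663 that rose (2.14%) and 679 that fell (2.19%). This balance depended on the processing. After quantile normalization of the arrays 565 rose and 779 fell, and without the dishes as a block 862 rose and 797 fell. Large changes were mostly losses, since 95 probe sets fell and 40 rose at least 2-fold, together 0.435% of those tested. An unadjusted p under 0.05 was reached by 4803 probe sets, against 1552.1 that chance alone would give. The median difference over all probe sets was -0.01. Without dish 1 of every concentration limma called 286 sets, without dish 2 501 and without dish 3 1958. With the spread pooled over all 29 compounds it called 448.

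The largest rise was that of 1370157_at, a set with a low level in solvent cells. Its controls read 4.53, 4.42 and 4.81 in dishes 1 to 3, and its treated arrays 7.02, 7.40 and 7.54. The lowest treated array thus lay well above the highest control. The log2 fold change was 2.73 ± 0.15 (SE, n = 3 dishes, limma adjusted p 1.09e-07). The second, 1368180_s_at, started from a high level. It rose from 9.93, 9.80 and 9.89 to 11.74, 11.66 and 11.86, by 1.88 ± 0.12 (limma adjusted p 4.34e-07), with no overlap of the groups. The dishes agreed closely, since their separate differences ran from 1.82 to 1.97.

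The largest fall was that of 1367631_at. Its control arrays read 8.62, 8.31 and 8.67 and its treated arrays 6.07, 6.27 and 6.23, a log2 fold change of -2.34 ± 0.12 (n = 3, limma adjusted p 1.04e-07). The probe set 1385016_at went from 9.47, 9.51 and 9.39 to 6.88, 7.27 and 7.44, a change of -2.26 ± 0.13 (limma adjusted p 2.24e-07). In both, every treated array was lower than every control. Since whole wells were measured, a loss of cells of a type and a loss of RNA per cell cannot be told apart.

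The called probe sets were well expressed ones. The median level in the 2-nitrofluorene controls was 7.44 for the sets that rose and 7.66 for those that fell, against 5.49 over all sets tested. Sets of the _s_at and _x_at kinds made up 3.47% of the rises and 1.33% of the falls, against 1.61% of all. A sign of RNA quality moved with treatment. At 43.13 µM the beta-actin signal at the 3′ end exceeded that at the 5′ end by 2.06 to 2.33 in treated and 2.34 to 2.82 in control arrays. The ranges overlapped at the middle concentration (2.57 to 2.83 and 2.41 to 2.76) and at the low one (2.51 to 2.78 and 2.46 to 2.80). For GAPDH the same difference was 0.26 to 0.31 in treated and 0.35 to 0.55 in control arrays at 43.13 µM, and 0.33 to 0.52 and 0.59 to 0.72 at 14.38 µM. These ranges did not overlap at either concentration, while at 4.76 µM they did (0.51 to 0.67 and 0.54 to 0.61). The part of these shifts in the calls was not tested.

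The array's own sets for the structural gene beta-actin (Actb) and the glycolytic enzymes GAPDH and hexokinase gave a check on named transcripts. At the 3′ end, where the labelling method reads best, beta-actin was 12.25 in control and 12.26 in treated cells at 43.13 µM, a difference of 0.01 ± 0.09 (SD, n = 3). The 3′ set of GAPDH differed by 0.08 ± 0.10 at the high, 0.04 ± 0.04 at the middle and 0.02 ± 0.11 at the low concentration. Each of these 3′ differences was smaller than or similar to the spread between dishes. Sets nearer the 5′ end moved more. For beta-actin at 43.13 µM, the middle set was 0.25 ± 0.20 and the 5′ set 0.46 ± 0.22 higher, each in all 3 dishes, while at 14.38 µM they read -0.14 ± 0.14 and -0.14 ± 0.28. For GAPDH at 14.38 µM, the middle set was 0.25 ± 0.06 and the 5′ set 0.27 ± 0.10 higher, beyond the spread and in all 3 dishes. At 43.13 µM these were 0.20 ± 0.22 and 0.22 ± 0.18, also higher in all 3. Hexokinase was dim, with 3′ levels between 4.28 and 4.85 on the 18 arrays.

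**Figure D1:**
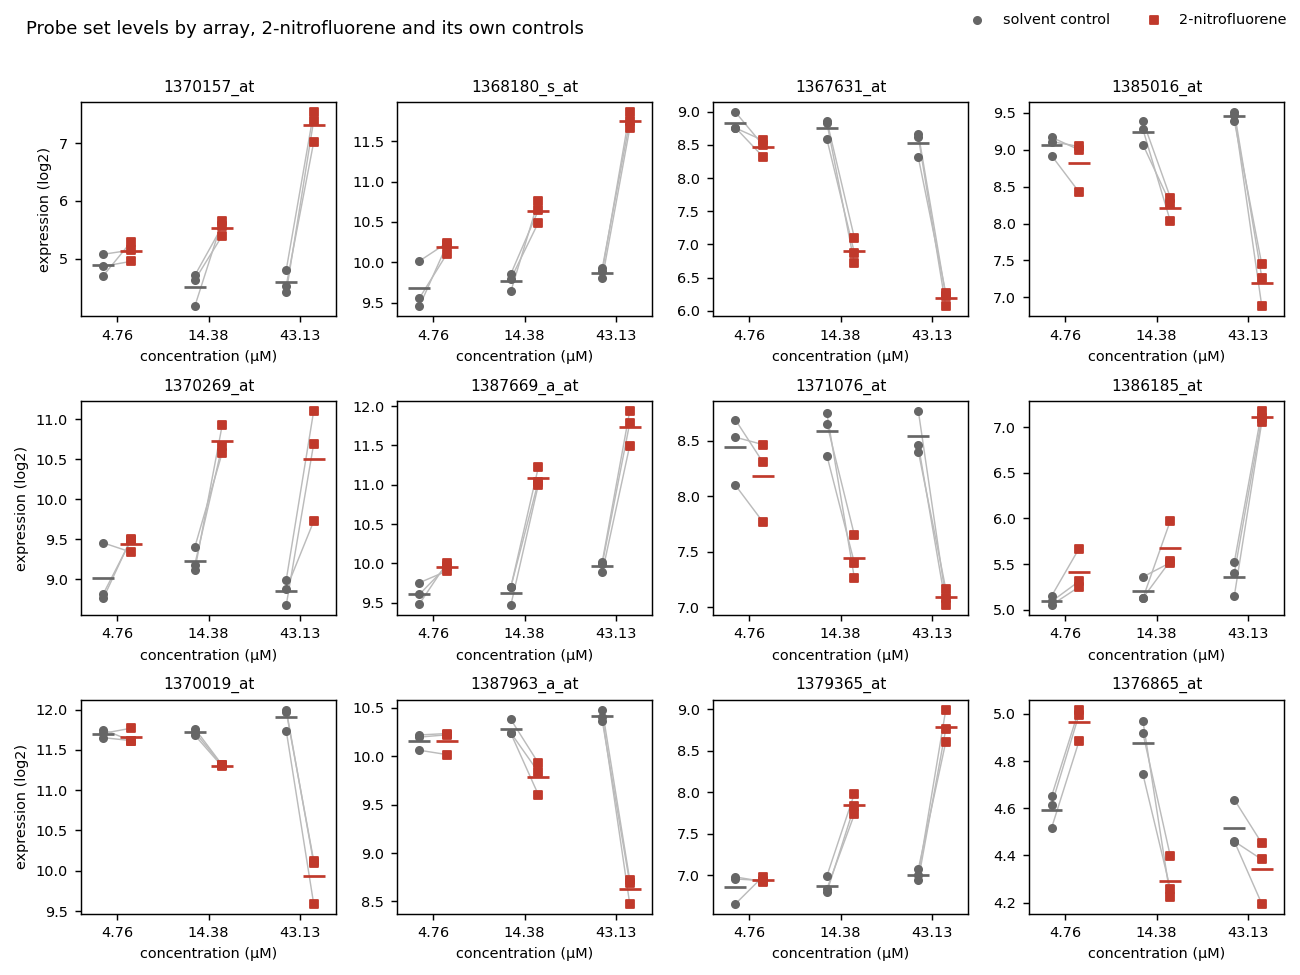
Expression level (log2, y axis) of 12 probe sets on each of the 18 arrays, by concentration in µM (x axis, equal spacing). Grey circles are solvent controls, red squares 2-nitrofluorene, grey lines join the arrays of a dish and bars mark group means. 1370157_at separated fully at 14.38 and 43.13 µM and overlapped at 4.76 µM, where the means were 4.88 in control and 5.13 in treated cells.

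At 14.38 µM the response was smaller and made up mostly of falls. In total, 203 probe sets (0.654%) were called, 34 higher (0.110%) and 169 lower (0.544%). Of these, 5 rose and 8 fell at least 2-fold, together 0.0419% of those tested. Without the dishes as a block, limma called 320 (69 higher and 251 lower). After quantile normalization of the 18 arrays, it called 169, of which 28.4% were rises, against 16.7% in the analysis as deposited. An unadjusted p under 0.05 was reached by 4094 probe sets. Without dish 1 of every concentration 3 sets were called, without dish 2 29, with each concentration fitted alone 588, and with the spread pooled over all compounds 39.

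The largest rise at this concentration was that of 1370269_at, from 9.19, 9.12 and 9.40 in controls to 10.67, 10.93 and 10.58 in treated cells. The change was 1.49 ± 0.21 (n = 3, limma adjusted p 0.00444, and 0.0957 without dish 2), and the groups did not overlap. At 43.13 µM the same set varied more, since its treated arrays read 9.73, 10.69 and 11.10, and its change was 1.66 ± 0.21 (limma adjusted p 0.000257). The first high dish, at 0.85, rose less than any of the middle dishes, the lowest of which rose by 1.18.

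The next, 1387669_a_at, rose in each middle dish by 1.34 to 1.53. Its controls read 9.47, 9.70 and 9.70 and its treated arrays 10.998, 11.04 and 11.22, a change of 1.46 ± 0.10 (limma adjusted p 1.13e-05). At 43.13 µM the change was 1.77 ± 0.10 (limma adjusted p 2.61e-07). The effect at the middle concentration was thus most of that at the high one.

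The fall of 1367631_at was again the largest. It read 8.59, 8.86 and 8.83 in controls and 6.88, 7.10 and 6.72 in treated cells, a change of -1.86 ± 0.12 (limma adjusted p 5.36e-06). The second, 1371076_at, changed from 8.75, 8.66 and 8.37 to 7.27, 7.65 and 7.40, by -1.15 ± 0.12 (limma adjusted p 0.00113, and 0.105 without dish 1). Both sets were lower in every treated array than in any control. At 43.13 µM, 1371076_at changed by -1.46 ± 0.12 (limma adjusted p 6.92e-06).

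At 4.76 µM no probe set passed the threshold (0%), and the smallest adjusted p of limma was 0.0769. An unadjusted p under 0.05 was reached by 2765 probe sets, against 1552.1 by chance. This count of 0 depended on the third dish number. Without dish 3 at every concentration, limma called 235 sets at 4.76 µM, 181 higher and 54 lower. Of these, 64 moved in the same direction in the third low dish, 165 moved in that direction at 43.13 µM and 97 at 14.38 µM. As a background with all 3 low dishes, 63.8% of all sets with a positive change at 43.13 µM were also positive at 4.76 µM. Of all sets with a negative change, 44.2% were also negative. Whether the 235 exceed such a background was not tested. Leaving out the third low dish alone, an alternative chosen after the data were seen, left the count at 0.

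The probe sets that led at the higher concentrations were shifted in the same direction at 4.76 µM, without passing the test. For 1368180_s_at the low controls read 9.56, 9.45 and 10.02 and the treated arrays 10.10, 10.22 and 10.24, a difference of 0.51 ± 0.12 (limma adjusted p 0.301). The groups did not overlap. For 1367631_at the difference was -0.37 ± 0.12 (limma adjusted p 0.397), from 8.76, 8.76 and 8.99 to 8.32, 8.57 and 8.498. These groups did not overlap either. For 1370157_at it was 0.24 ± 0.15 (limma adjusted p 0.65) and the groups overlapped.

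Differences between concentrations were tested directly as contrasts of the same fit. Between 43.13 and 14.38 µM, 20 probe sets (0.0644%) differed, 10 each way (0.0322% each). Between 43.13 and 4.76 µM, 317 (1.02%) differed, with 102 (0.329%) more positive and 215 (0.693%) more negative at the high concentration. Between 14.38 and 4.76 µM, 3 (0.00966%) differed, 1 more positive (0.00322%) and 2 more negative (0.00644%) at 14.38 µM. At an unadjusted p under 0.05 these counts were 3559, 3677 and 4096. Without the dishes as a block the counts of calls were 37, 519 and 18. They were 1, 27 and 0 without dish 1, 0, 68 and 0 without dish 2, and 78, 382 and 136 without dish 3.

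The effect on 1370157_at grew by 1.70 from the middle to the high concentration (95% interval 1.26 to 2.14, limma adjusted p 0.00717, and 0.3 without dish 2). That of 1386185_at grew by 1.28 (0.90 to 1.66, limma adjusted p 0.0262). Its controls at 43.13 µM read 5.15, 5.52 and 5.404 and its treated arrays 7.06, 7.18 and 7.10, a rise of 1.75 ± 0.13 (limma adjusted p 1.67e-06). At 14.38 µM the difference was 0.47 ± 0.13 (limma adjusted p 0.108). That difference was positive in all 3 middle dishes (0.41, 0.85 and 0.16), the groups did not overlap and its 95% interval was 0.20 to 0.74. The high minus middle call was lost without dish 1 (limma adjusted p 0.759), without dish 2 (0.0858) and with the pooled spread (0.372).

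Among falls, 1370019_at separated these concentrations most. This set is bright, with controls at 11.74, 11.97 and 11.998 and treated arrays at 9.59, 10.12 and 10.10 at 43.13 µM, a change of -1.97 ± 0.10 (limma adjusted p 1.04e-07). At 14.38 µM each dish lay close to -0.42, between -0.39 and -0.45, with a limma adjusted p of 0.0667. The difference between the concentrations was -1.55 (95% interval -1.84 to -1.25, limma adjusted p 0.00042). For 1387963_a_at it was -1.29 (-1.59 to -1.002, limma adjusted p 0.00193), with changes of -1.79 ± 0.10 at 43.13 µM and -0.49 ± 0.10 at 14.38 µM. Without dish 1 and dish 2 the limma adjusted p of these differences was 0.137 and 0.061 for 1370019_at, and 0.19 and 0.178 for 1387963_a_at, which also lost its call with the pooled spread (0.302).

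For other leading sets no difference between 43.13 and 14.38 µM was called. For 1370269_at the difference was 0.16 with a 95% interval of -0.48 to 0.80 (limma adjusted p 0.875). For 1387669_a_at it was 0.31 (-0.01 to 0.63, limma adjusted p 0.446) and for 1367631_at -0.48 (-0.85 to -0.12, limma adjusted p 0.296). These intervals do not show equal effects.

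Between the high and the low concentration the largest positive differences were those of 1370157_at, at 2.49 ± 0.21 (limma adjusted p 5.24e-05), and 1379365_at, at 1.70 ± 0.16 (limma adjusted p 0.00013). The latter rose in steps. Its change was 0.08 ± 0.11 (limma adjusted p 0.852) at 4.76 µM, 0.97 ± 0.11 (0.00157) at 14.38 µM and 1.78 ± 0.11 (4.56e-07) at 43.13 µM. The largest negative differences were those of 1385016_at, at -2.02 ± 0.18 (limma adjusted p 0.000121), and 1367631_at, at -1.97 ± 0.17 (6.8e-05).

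The 3 sets that separated 14.38 from 4.76 µM behaved differently from each other. The effect on 1387669_a_at was 1.12 ± 0.15 larger at 14.38 µM (limma adjusted p 0.0311), and that on 1367631_at was more negative by 1.49 (limma adjusted p 0.0104, on the same scale). None of the 3 was called without dish 1 or without dish 2 (limma adjusted p 0.332 to 0.644), and with the pooled spread only 1367631_at was. For 1376865_at the direction was opposite at these concentrations. It was lower in all middle dishes, with controls at 4.97, 4.92 and 4.74 and treated arrays at 4.22, 4.40 and 4.26. In the low dishes it was higher, with controls at 4.65, 4.61 and 4.52 and treated arrays at 5.02, 4.997 and 4.88. At 43.13 µM the difference was -0.18 ± 0.10 (limma adjusted p 0.428), so no ordered relation with concentration was seen in this dim set.

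**Figure D2:**
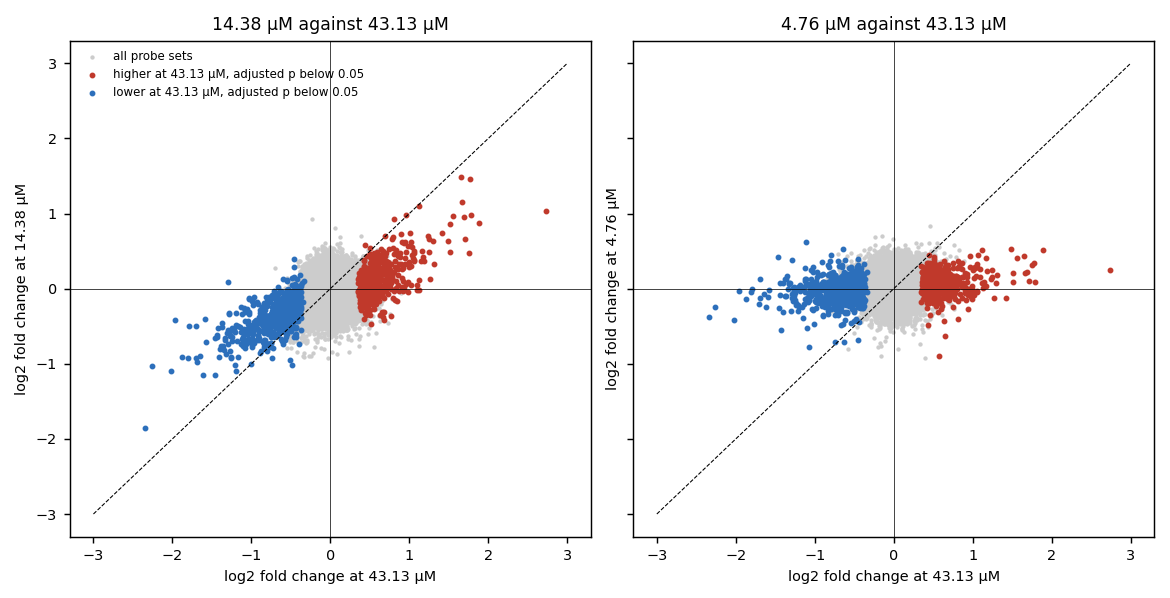
Log2 fold change of every probe set at 14.38 µM (left, y axis) and 4.76 µM (right, y axis) against that at 43.13 µM (x axis), with sets called at 43.13 µM coloured red (rises, 663) and blue (falls, 679), the others grey, and equality as a dashed line. On the left the blue points lie mostly below 0, with a median of -0.36, while on the right both colours lie near 0, with medians of 0.07 for rises and -0.02 for falls.

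In the values as deposited, falls at the high concentration carried over to the middle one more than rises did. Of the 679 probe sets that fell at 43.13 µM, 657 (96.8%) had a negative change at 14.38 µM, and 86.5% were lower in all 3 middle dishes. Over all probe sets with a negative change at 43.13 µM these shares were 51.1% and 22.4%. Of the 663 that rose, 446 (67.3%) had a positive change at 14.38 µM and 40.7% were higher in all 3 dishes, against 53.8% and 21.1% over all sets with a positive change. The median change of the falls was -0.62 at the high and -0.36 at the middle concentration. That of the rises was 0.52 and 0.08. The falls were thus also the larger changes at the concentration that selected them. The shares were not counted after quantile normalization, and the part of either in them was not tested.

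At 4.76 µM the called sets lay much closer to the rest. A positive change was seen in 70.3% of the rises, against 63.8% of all sets with a positive change at 43.13 µM, and a negative change in 55.7% of the falls, against 44.2%. The median change over all probe sets was 0.03 at this concentration. The medians of rises and falls were 0.07 and -0.02.

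An ordered response, with the change growing from 4.76 to 14.38 to 43.13 µM in the direction of the call, was found in 600 of the falls (88.4%) and 361 of the rises (54.4%). Over all sets of each direction these shares were 34.9% and 23%. Among changes of at least 2-fold, order was the rule, with 93 of 95 falls and 35 of 40 rises. Their medians at high, middle and low were -1.21, -0.63 and -0.06 for the falls, and 1.21, 0.50 and 0.19 for the rises. These sets were chosen at 43.13 µM, so their high values are a description and are larger than unselected ones would be. The same choice favours order. A larger change at 43.13 than at 14.38 µM was seen in 94.4% of the 679 falls and 99.2% of the 663 rises. Over all sets of each direction it was seen in 76.4% and 74.6%. The 663 rises had medians of 0.08 at the middle and 0.07 at the low concentration. Order beyond this choice was not tested.

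In all, 147 probe sets were called at both 43.13 and 14.38 µM, 27 higher and 120 lower at both, and 0 in opposite directions. In these sets the middle change was 65.0% of the high one at the median for the rises (quartiles 55.4 and 87.0%) and 70.7% for the falls (60.4 and 92.0%). A call at both concentrations selects sets with a large middle change, so these shares do not hold for the response as a whole. Over all sets called at 43.13 µM, the median middle change divided by the median high change was 0.163 for rises and 0.589 for falls. For 5 of these rises and 20 of these falls the change at the middle concentration was at least as large as at the high one. The difference between the concentrations itself was called for 3 of the rises and 2 of the falls. A further 7 rises and 49 falls were called at 14.38 µM alone, and 5 and 41 of these had the same sign at 43.13 µM.

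Some sets moved in opposite directions at different concentrations in every dish. This was so for 76 of the 317 sets called between 43.13 and 4.76 µM and for 4 of the 20 called between 43.13 and 14.38 µM. Whether each opposing change differs from 0 is a separate test. None of the 4 passed it at 14.38 µM. For the 76 it cannot decide, since 0 of all 31042 probe sets were called at 4.76 µM. Choosing sets by a difference between concentrations also favours opposite directions. The share of such sets over all probe sets was not counted, so no conclusion is drawn from these numbers.

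The called sets were also set beside the change that culture itself brings. For this, the 247 solvent arrays of the other compounds were averaged and compared, without a test, with the 34 arrays of cells at the start of incubation. None of these arrays entered the comparisons of 2-nitrofluorene with its own solvent, although those of 3-methylcholanthrene and aflatoxin B1 enter the contrasts between compounds below. Of the sets that rose with 2-nitrofluorene at 43.13 µM, 80.8% were higher after solvent culture than before, against 49.8% of all sets. Of those that fell, 38.3% were higher after culture, and 9.57% had dropped at least 2-fold in culture, against 2.41% of those that rose and 1.30% of all sets. Gains of at least 2-fold in culture were found in 4.68% of the rises, 1.91% of the falls and 0.445% of all sets. Among changes of at least 2-fold with 2-nitrofluorene, such drops in culture were equally frequent, at 10% of the 40 rises and 9.47% of the 95 falls. The called sets were brighter than all sets, with median control levels of 7.44 for rises and 7.66 for falls against 5.49. Shares among sets of equal level were not counted, so the part of level in these contrasts with all sets was not tested. Single sets went both ways. 1379365_at, which rose with 2-nitrofluorene, stood 1.81 lower in solvent culture (6.73) than at the start (8.54), while 1371076_at, which fell, had risen by 1.26 in culture, from 6.84 to 8.10.

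2-Acetylaminofluorene differs from 2-nitrofluorene in carrying an acetylated amino group in place of the nitro group. The study used it at 0.99 µM as its high concentration, so that the values are given side by side from separate fits and not tested against each other. For 1370157_at, 2-acetylaminofluorene gave 2.99 ± 0.13 (SE, n = 3, limma adjusted p 1.82e-06) and 2-nitrofluorene 2.73 ± 0.15. Its controls lay between 3.51 and 3.81 and its treated arrays between 6.58 and 6.82. For 1386185_at the changes were 2.01 ± 0.22 (limma adjusted p 0.0028) and 1.75 ± 0.13, and for 1387669_a_at 1.30 ± 0.14 (0.00287) and 1.77 ± 0.10. For 1368180_s_at they were 0.00 ± 0.11 (0.999) and 1.88 ± 0.12. 1370269_at read -0.68 ± 0.23 (0.392) with 2-acetylaminofluorene, and 1.66 ± 0.21 with 2-nitrofluorene.

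The calls of 2-acetylaminofluorene were largely among those of 2-nitrofluorene. Of its 89 calls (0.287%), 70 were called in the same direction with 2-nitrofluorene and 0 in the opposite one. These 70 are 78.7% of its calls and 5.22% of those of 2-nitrofluorene. The compounds have separate controls. The middle treated and low control arrays of 2-acetylaminofluorene lacked spike signal, and their dishes share the estimate of the spread behind these SEs and calls. The same fit called 275 sets at its middle concentration (0.33 µM) and 9861 of 31042 at its lowest (0.11 µM), so its calls did not grow with concentration. The cause was not tested. With its 3 high dishes fitted alone, an alternative chosen after the data were seen, limma called 1 set (0.00322%), and 1724 reached an unadjusted p under 0.05. The called set was also called with 2-nitrofluorene in the same direction. In that fit 1370157_at had an SE of 0.13 (limma adjusted p 0.017), 1386185_at one of 0.20 (0.182) and 1387669_a_at one of 0.16 (0.245), so the share of 78.7% rests on the joint fit.

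3-Methylcholanthrene (3-MC) is a polycyclic hydrocarbon and a classical ligand of the aryl hydrocarbon receptor. It was given at 5.76 µM with 2 treated and 2 control arrays. Its arrays had medians of 5.25 to 5.31, below those of the 2-nitrofluorene arrays, and what this adds to the differences cannot be told apart from the compound. The test compares the treatments as given, since the concentrations differ. The effects differed for 212 probe sets (0.683%), 51 more positive and 161 more negative with 2-nitrofluorene, and 3906 reached an unadjusted p under 0.05. Without dish 3 of every group, which keeps both 3-methylcholanthrene dishes at 5.76 µM, the count was 152. Without dish 1 or dish 2 a single one of them was left, so no count is given.

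Some of these differences were very large. The changes with each compound are from its own fit and the differences from a fit that holds both, so their SEs do not combine. 1368990_at was raised by 5.46 ± 0.25 with 3-methylcholanthrene, from controls of 5.399 and 5.44 to treated levels of 10.35 and 11.40. With 2-nitrofluorene at 43.13 µM it read 6.02, 6.12 and 6.16 in controls and 5.97, 5.76 and 5.73 in treated cells. The difference of the effects was -5.74 ± 0.24 (limma adjusted p 5.16e-14). For 1368130_at it was -4.63 ± 0.23 (1.6e-12), with changes of 4.29 ± 0.23 and -0.34 ± 0.14 (limma adjusted p 0.221 for 2-nitrofluorene). More positive with 2-nitrofluorene were 1398250_at, by 1.78 ± 0.38 (limma adjusted p 0.0215), and 1372264_at, by 1.54 ± 0.24 (0.00138). The dim set 1398250_at, with 2-nitrofluorene controls at 2.99 to 3.21, changed by 1.27 ± 0.15 with 2-nitrofluorene (limma adjusted p 9.83e-05). With 3-methylcholanthrene it read -0.51 ± 0.40 (limma adjusted p 0.695). 1372264_at was not raised by 2-nitrofluorene, at -0.23 ± 0.10 (limma adjusted p 0.295). Its change with 3-methylcholanthrene was -1.77 ± 0.28 (limma adjusted p 0.0237). Leaving out dish 1 or dish 2 left a single 3-methylcholanthrene dish at 5.76 µM, so the calls could not be checked in this way. The difference was then 1.62 and 2.05 for 1398250_at, and 1.08 and 2.08 for 1372264_at.

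Of the sets already described, 1370269_at rose with both compounds but 3.11 less with 2-nitrofluorene (95% interval of the difference -3.71 to -2.51, limma adjusted p 7.64e-07), since its change with 3-methylcholanthrene was 4.76 ± 0.19. For 1370157_at the difference was 0.01 with an interval of -0.71 to 0.74 (limma adjusted p 0.991), and for 1367631_at -0.10 with -0.62 to 0.42 (0.911). No difference was detectable for these sets, and the intervals leave room for differences of the size given. Of the 121 calls (0.390%) of 3-methylcholanthrene at its high concentration, 73 (60.3%) were called in the same direction with 2-nitrofluorene and 2 in the opposite one.

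Aflatoxin B1 (AfB1), a fungal toxin whose epoxide binds to DNA, was used at 0.0028 µM as its high concentration with 3 dishes. The effects of the treatments as given differed for 164 probe sets (0.528%), 81 more positive and 83 more negative with 2-nitrofluorene. An unadjusted p under 0.05 was reached by 3024. The count was 10, 21 and 728 without dishes 1, 2 and 3, and 286 after quantile normalization. The largest positive differences were 1.89 ± 0.17 for 1368283_at (limma adjusted p 5.38e-07) and 1.76 ± 0.31 for 1383744_at (0.00644, but 0.35 without dish 1 and 0.675 without dish 2). 1368283_at rose with 2-nitrofluorene from 6.97, 6.81 and 6.80 to 8.27, 8.64 and 8.73 at 43.13 µM, and read -0.20 ± 0.10 with aflatoxin B1 (limma adjusted p 0.306).

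On the other side, 1367661_at changed by -1.31 ± 0.12 with 2-nitrofluorene and by 0.75 ± 0.13 with aflatoxin B1, both called, and the difference was -2.06 ± 0.27 (limma adjusted p 0.000152, and 0.123 without dish 1). 1370019_at, which 2-nitrofluorene lowered, read -0.05 ± 0.09 with aflatoxin B1, a difference of -1.92 ± 0.16 (2.19e-07). The rise of 1370157_at was of similar size, at 2.74 ± 0.22 with aflatoxin B1, with a difference of 0.00 and an interval of -0.65 to 0.64 (0.998). Aflatoxin B1 had 1250 calls (4.03%), and 195 of them matched a 2-nitrofluorene call in direction, which is 15.6% of its calls and 14.5% of those of 2-nitrofluorene.

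**Figure D3:**
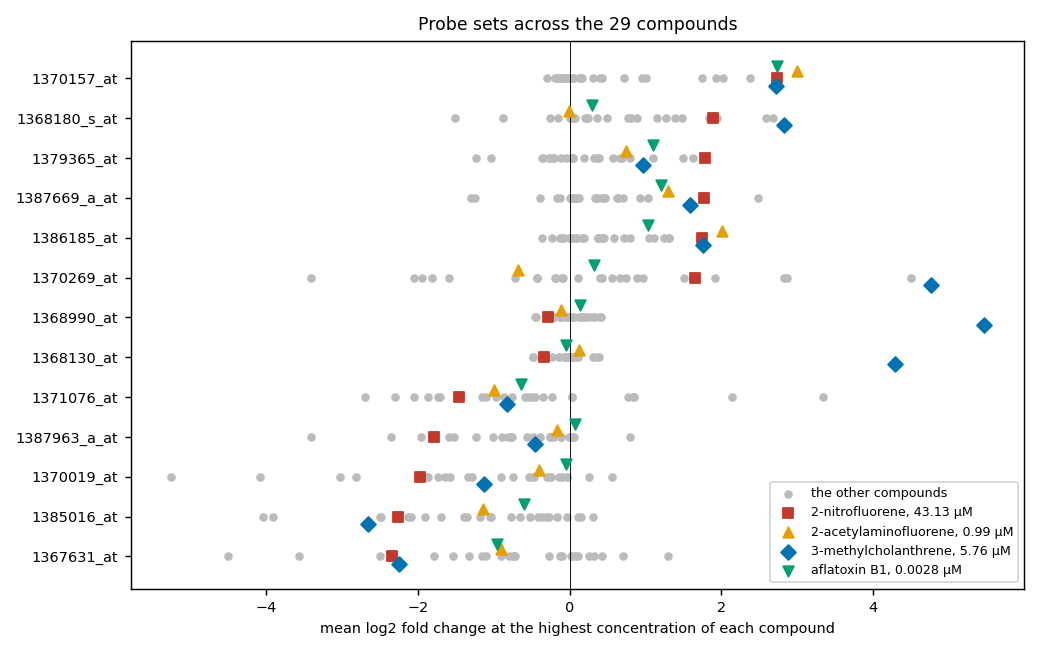
Mean log2 fold change (x axis) of 13 probe sets (y axis) at the highest concentration of each of the 29 compounds, with 2-nitrofluorene, 2-acetylaminofluorene, 3-methylcholanthrene and aflatoxin B1 marked, slightly offset in height, and the others in grey. The marked compounds lie together for 1370157_at, between 2.72 and 2.99, and 3-methylcholanthrene lies apart for 1368990_at at 5.46.

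Among the 29 compounds at their highest concentrations, 2-nitrofluorene ranked 10th in the number of calls. For 1370157_at it had the third highest change, after 2-acetylaminofluorene and aflatoxin B1, and this set was called as a rise for 9 other compounds. The median over the other 28 compounds was 0.16. For 1379365_at its change of 1.78 was the highest of the 29, ahead of dimethylnitrosamine at 1.63 and of NNK, a tobacco-specific nitrosamine, at 1.498. For 1387669_a_at it was second to dehydroepiandrosterone at 2.48, whose middle level is the highest one used here. That change was not called, since dehydroepiandrosterone had 0 calls. For 1368180_s_at and 1370269_at its rank was 5 and 6 from the highest. Among the falls, for 1367631_at the lowest value was that of cyproterone acetate at -4.50, with 2-nitrofluorene at rank 4 from the lowest, and this set was called as a fall for 13 other compounds. For 1385016_at 2-nitrofluorene was at rank 6 from the lowest, and 17 other compounds were called.

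Falls were called with more of the other compounds than rises were. Over all probe sets calls lower were also more numerous than calls higher, but more sets were never called lower than never called higher. The other 28 compounds had 27661 calls lower and 23754 higher in all. Over all 31042 probe sets, 4.82% were called lower and 1.17% higher for at least 5 of them, and 65.9% and 50.3% for none. Of the 663 rises, 128 were called in that direction for no other compound, the median was 2 other compounds and 125 (18.9%) were called for at least 5. Of the 679 falls, 18 were called for no other compound, the median was 6 and 456 (67.2%) were called for at least 5. Whether the falls exceed the rises beyond this background was not tested. Of the 95 falls of at least 2-fold, 90 were called for at least 5 other compounds and 0 for none. Of the 40 rises of at least 2-fold, 25 were called for at least 5 and 1 for none. Every compound had its own controls and fit, and these counts depend on how many sets each compound had called. That number was 13297 (42.8%) for N-nitrosomorpholine, and the share was 13.6% for methapyrilene, 19.7% for methylendianiline, 10.6% for C.I. Direct Black, 17.1% for ibuprofen and 16.3% for Wy-14643. It was 8.28% for cefuroxime, 7.36% for allyl alcohol, 4.05% for propranolol, 3.25% for cyproterone acetate, 2.67% each for clonidine and piperonylbutoxide and 0.796% for nifedipine. It was 0.419% for thioacetamide, 0.329% for dimethylnitrosamine, 0.0322% for prazosin and 0.00322% for acetaminophen. A further 6 compounds had 0 calls.

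Over all 31042 probe sets, the mean change with 2-nitrofluorene at 43.13 µM correlated most with those of diethylstilbestrol (r = 0.50) and NNK (r = 0.46). It followed with 2-acetylaminofluorene (0.39), 3-methylcholanthrene (0.39) and dimethylnitrosamine (0.35), and with aflatoxin B1 r was 0.12. With diethylstilbestrol (2802 calls, 9.03%), 643 calls were shared in direction, which is 47.9% of those of 2-nitrofluorene and 22.9% of those of diethylstilbestrol. With NNK (585 calls, 1.88%) 277 were shared, 20.6% and 47.4%. These are descriptions over probe sets of the same array design and culture system.

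**Figure D4:**
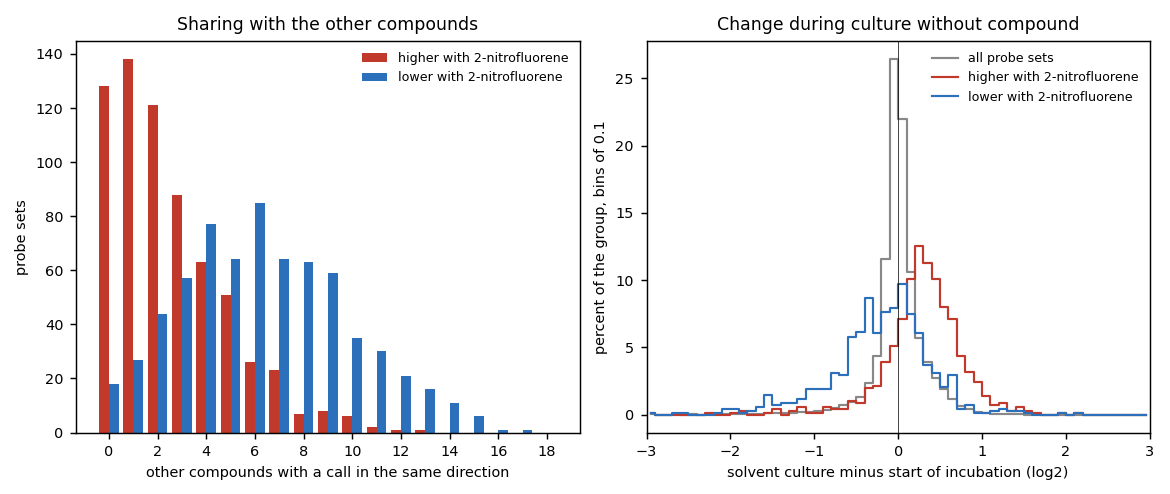
Left, number of probe sets (y axis) called at 43.13 µM by the number of other compounds with a call in the same direction (x axis), for rises (red) and falls (blue). Right, percent of each group of probe sets (y axis) by the difference of solvent culture minus start of incubation (log2, x axis). On the left the falls peak at more compounds, with medians of 6 and 2, and on the right the rises lie to the right of 0, with a median of 0.31.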

How the data were processed

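The deposited table holds log2 expression levels of all arrays, with the scale read from their range of 2.00 to 14.6, and the submitters' processing notes name RMA (robust multi-array average), with its version and array set not given in the sources used here. Per the labels, 100 ng of RNA was amplified and labelled with biotin. Calculations used R 4.3.3 and limma 3.58.1. Within each dish the control was subtracted from the treated array, and lmFit and eBayes were fitted to the 9 differences over 31042 probe sets, with Benjamini-Hochberg adjustment per comparison. The contrasts with 3-methylcholanthrene and aflatoxin B1 came from 1 fit of all dishes of the 3 compounds. The separate changes, SEs and calls of every compound, these 2 included, came from its own fit.

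The pairing rests on the design text. In the values, deviations of arrays with the same number correlated at -0.05 on average (-0.31 to 0.35), those with different numbers at 0.03, and 1 of 9 pairs exceeded 0.1. Dishes of different concentrations with the same number correlated at 0.13 (9 pairs) and with different numbers at -0.07. The labels do not say whether these are the same rats, so the p-values of the joint fit take the 9 dishes as independent.

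The rule for named probe sets took the largest rises and falls among sets called and moved alike in every dish, and the contrasts' largest calls. Lists of genes and cell type markers could not be applied without gene names. The arrays, lists and comparisons were chosen with earlier results of these data known. Procedures were tested on simulated data.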

Additional observations from a re-analysis of the deposited data

Results flagged for a closer look

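The probe set 1376865_at was picked out because its effects at 14.38 and 4.76 µM differed by a test of the difference itself and ran in opposite directions in every dish. The difference of middle minus low was -0.96 ± 0.14 (SE, limma adjusted p 0.0434). The call was lost with the spread pooled over all compounds (limma adjusted p 0.422), without dish 1 (0.644) and without dish 2 (0.535). In single dishes the change was -0.75, -0.52 and -0.49 at 14.38 µM and 0.37, 0.38 and 0.37 at 4.76 µM. The change was called at 14.38 µM (-0.59, limma adjusted p 0.012) and not at 4.76 µM (0.37, limma adjusted p 0.322). The control means of this set were 4.88, 4.59 and 4.52 at 14.38, 4.76 and 43.13 µM, a spread similar in size to the changes, and 4 other compounds were called in the direction it had at 43.13 µM. Groups of 3 arrays are too small for a check of single outlying arrays.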

How the results depend on the processing

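Counts of calls at high, middle, low, high minus middle, high minus low and middle minus low were 1342, 203, 0, 20, 317 and 3. Apart from quantile normalization and leaving out dishes, the alternatives do not change the estimates, so direction could not shift under them. Under those that do, the direction of the 19 printed probe set results of these comparisons and of the 8 between compounds was kept. The sets were chosen as the largest calls of the same data, which favours a kept direction. Without the replicate block the counts were 1659, 320, 0, 37, 519 and 18, with no printed call lost, and 1283 of the 1342 high calls and 183 of the 203 middle calls were shared. With trend and robust moderation they were 1542, 360, 5, 45, 465 and 18. Quantile normalization gave 3 calls at low, and 286 in place of 164 for the contrast with aflatoxin B1, and moved the share of rises from 49.4 to 42.0% at high. With each level fitted alone the middle count was 588. With the spread pooled over all compounds the counts were 448, 39, 0, 2, 105 and 1, and 4 of 19 printed calls were lost. Leaving out each dish number in turn gave 286 to 1958, 3 to 232, 0 to 235, 0 to 78, 27 to 382 and 0 to 136. The lowest counts came without number 1 (286, 3 and 27 for high, middle and high minus low) and the next without number 2 (501, 29 and 68), each with 6 dishes left, and 11 and 10 of 27 printed calls were lost. Without number 3, which also leaves 6 dishes, the counts were 1958, 232, 235, 78, 382 and 136, and 0 were lost. For the contrasts with 3-methylcholanthrene and aflatoxin B1 the ranges were 26 to 168 and 10 to 728, against 212 and 164. After the data were seen, 3 alternatives were added. Without the third low dish alone, the counts were 1825, 420, 0, 24, 400 and 49. With the replicate number as a random block across levels (estimated correlation 0.06) they were 1382, 215, 0, 21, 413 and 3. The 3 high dishes of 2-acetylaminofluorene fitted alone, also added then, gave 1 call in place of 89. The causes of these shifts were not tested. An array batch term was not run, because all 18 arrays had medians over 5.4, and the alternatives for gene lists were not run, because probe sets are not paired with genes here.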
